A study of Mus musculus with 39 samples.

Results

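Leptin and 7 other genes of signals released or received by fat were followed in mouse brown fat: Lep, Adipoq, Retn, Rbp4, Nrg4, Nampt, Rarres2 and Npr3. They were taken by gene symbol from a table of 24116 genes, together with the BCL6 binding peaks whose nearest annotated gene was one of them. All 8 were found, and all 8 were among the 13176 genes with a mean of at least 10 normalised counts, which were the genes tested. RNA came from interscapular brown fat of male C57BL/6J mice kept on standard chow, in 4 groups of 4 libraries: Cre-labelled at 30 °C, control at 30 °C, Cre-labelled at 22 °C and control at 22 °C. Every group, controls included, carried floxed Bcl6, the gene of a transcriptional repressor. Cre-labelled mice also carried Ucp1-Cre, which acts in cells that use the Ucp1 promoter, so the other cells of the whole tissue keep Bcl6 intact by design. No source used here gives the age of the mice. Whether the 4 libraries of each group stand for 4 different mice is not labelled, so p-values reflect the spread between libraries, which may be technical. Because whole tissue was measured, fewer cells of a type and less RNA per cell cannot be told apart in any value below.

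Fat cells release hormones that report energy stores and act on appetite, insulin response and nearby nerves and vessels. Leptin is made by adipocytes, more by white than by brown ones in typical mouse tissue, and lowers food intake through its receptor in the brain. Brown fat burns fuel for heat under sympathetic drive, which is low in warm housing and higher at cooler room temperature.

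The 12 general adipocyte markers and the 12 brown fat markers were all detected in every library. Summed brown markers ran from 35314 to 43392 normalised counts in Cre-labelled libraries and from 63614 to 71595 in controls at 30 °C, and from 93435 to 150216 in Cre-labelled libraries and from 143934 to 208905 in controls at 22 °C. Bcl6 transcript was higher, not lower, in libraries labelled Cre-positive (log2 difference 1.32 at 30 °C and 1.70 at 22 °C), and no source used here names the deleted exons, so this whole-gene value does not check the label. Every genotype difference below follows the library labels. Library totals ran from 8867615 to 13516936 normalised counts, and raw depth is unknown. Cre-labelled 22 °C library 2 and control 22 °C library 1 detected the fewest genes (15226 and 14311, against 15611 to 16849 elsewhere), and calls that change without these 2 sparsest libraries are given both ways.

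The BCL6 peak list held 3022 peaks from brown fat of male floxed C57BL/6J mice without Cre at 30 °C, and 2 were assigned to these genes. One lay at the Lep promoter (mm10, chr6:29059868-29060048), with its centre 263 bases before the annotated start. Its deposited score of 19.8 was above that of 96.2% of all peaks and ranked 13 among the 485 peaks annotated at promoters, where the median score was 5.01. The score is the authors' own value and was used only to rank peaks within this list. The Lep promoter is printed because it carries the strongest BCL6 peak near these genes. It covers the 250 bases before the start from RefSeq (GRCm38.p6, chr6:29059971-29060220, plus strand), and capitals mark the 78 bases that the deposited peak overlaps.

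Lep promoter: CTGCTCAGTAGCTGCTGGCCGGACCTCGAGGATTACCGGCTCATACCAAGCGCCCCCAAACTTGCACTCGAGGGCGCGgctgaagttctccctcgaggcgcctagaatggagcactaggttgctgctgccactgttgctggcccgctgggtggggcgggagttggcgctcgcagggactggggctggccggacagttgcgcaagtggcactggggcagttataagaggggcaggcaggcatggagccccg

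The peak's centre lay 13 bases before the first printed base, so only part of the peak is shown. The spaced motif TTCNNNGAA, to which STAT proteins are known to bind and which BCL6 sites resemble, was searched on both strands of the RefSeq promoter windows of 7 of the 8 genes, each reaching 250 bases before and 50 bases after a start. No window held it, while 8.30% of all 32851 such windows did. Nor did any hold TTCCNNGAA (4.81% of all windows) or TTCCTAGAA (0.411% of all windows), both of which are forms of the first. This says only that these letters are not in these windows.

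The other peak was assigned to Nampt from 141274 bases upstream (mm10, chr12:32678971-32679151), in intergenic sequence. It had the lowest score in the list, 4.11, which 408 peaks shared. Adipoq, Retn, Rbp4, Nrg4, Rarres2 and Npr3 had no peak assigned. Measured to the gene body, the closest peak was 12.5 kb from Retn, 15.0 kb from Rarres2, 17.7 kb from Adipoq, 64.1 kb from Npr3, 126 kb from Nrg4 and 798 kb from Rbp4, each assigned to another gene. Among all genes tested, 14.2% had an assigned peak and 3.36% had one at the promoter, against 2 and 1 of the 8 genes here. Within 10 kb of the start, within 50 kb, or with a score at or above the median, 1 of the 8 had a peak assigned to it, Lep in each case, against 7.75%, 11.9% and 7.51% of all genes.

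**Figure D1:**
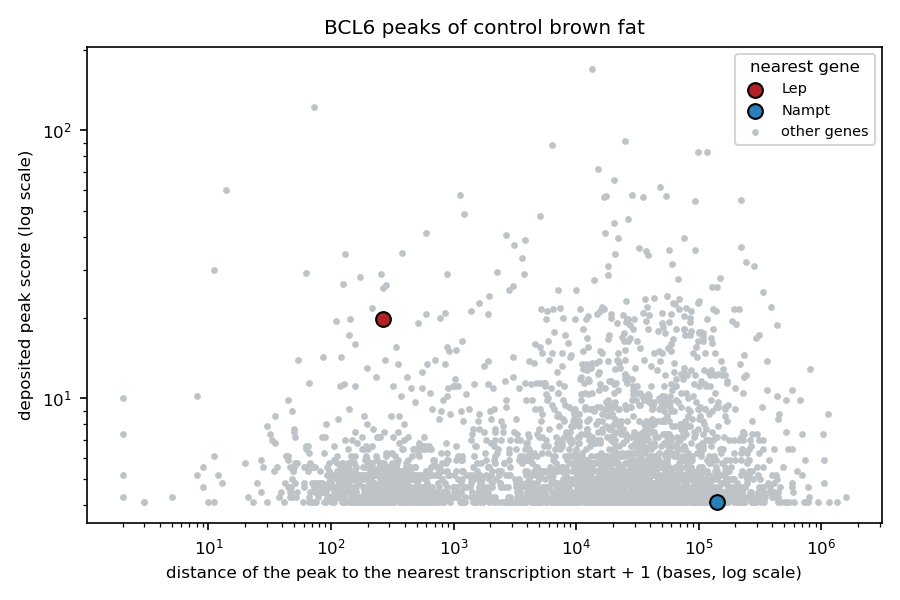
Deposited BCL6 peak score (vertical, log axis) against the distance in bases from the assigned gene's start without regard to side (horizontal, log axis), for the 3022 peaks in Cre-negative brown fat at 30 °C. The Lep promoter peak, at a score of 19.8, stands above most peaks, and the peak assigned to Nampt sits at the lowest score, 4.11, 141274 bases upstream.

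Leptin transcript averaged 3455 ± 861 normalised counts in Cre-labelled libraries and 1876 ± 219.6 in controls at 30 °C, and 729.8 ± 359.7 in Cre-labelled libraries and 379 ± 176 in controls at 22 °C (SD, n = 4 each). It rose in warm housing in both genotypes, and it rose with the Cre label when the temperatures were averaged. Lep had 3058, 4153, 4179 and 2429 normalised counts in Cre-labelled libraries at 30 °C, against 1856, 1577, 2079 and 1991 in controls at 30 °C. At 22 °C it had 1217, 355, 630.2 and 717 in Cre-labelled libraries, against 328, 219, 339 and 630.0 in controls. At 30 °C every Cre-labelled library stood above every control, while at 22 °C the genotypes overlapped, and in both genotypes every 30 °C library stood above every 22 °C library. The genotype difference on the log2(value + 1) scale was 0.85 at 30 °C (SE 0.32, 95% interval 0.18 to 1.53, limma adjusted p = 0.0941) and 0.92 at 22 °C (0.24 to 1.59, limma adjusted p = 0.0793), so neither passed the threshold of 0.05 over all genes. Averaged over both temperatures, a contrast added after the data were seen, Lep rose 1.85-fold with the Cre label (log2 difference 0.88, SE 0.23, limma adjusted p = 0.00964). Without the 2 sparsest libraries the difference was 0.85 at 30 °C (limma adjusted p = 0.0435) and 1.18 at 22 °C (limma adjusted p = 0.0224), both past the threshold.

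Warm housing raised Lep 5.29-fold in controls (log2 difference 2.40 of 30 °C over 22 °C, limma adjusted p = 2.88e-05) and 5.06-fold in Cre-labelled libraries (log2 difference 2.34, limma adjusted p = 6.61e-05). The genotype difference at 30 °C minus that at 22 °C was -0.06 (95% interval -1.02 to 0.89, limma adjusted p = 0.983), an interval wide enough to hold a change of either sign. Lep was also set against Adipoq within each library, a ratio added after the data were seen. The ratio was 18.5, 28.8, 24.5 and 19.2 Lep counts per 100 Adipoq counts in Cre-labelled libraries at 30 °C, against 13.0, 10.3, 14.5 and 13.6 in controls. At 22 °C it was 8.01, 1.60, 3.46 and 3.69 in Cre-labelled libraries, against 1.47, 1.38, 2.52 and 3.94 in controls. The groups were apart at 30 °C (two-sided exact permutation p = 0.0286, the smallest that 4 against 4 allows) and overlapped at 22 °C (exact permutation p = 0.229).

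**Figure D2:**
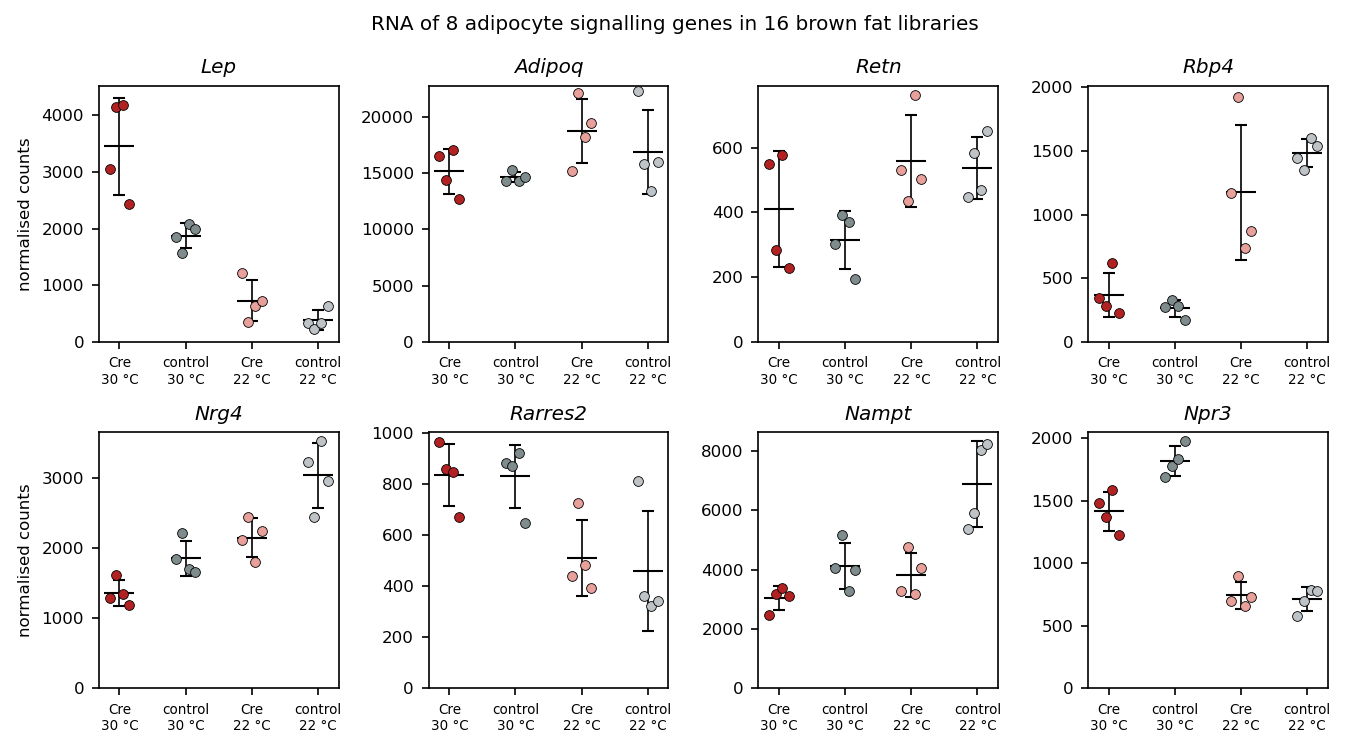
Normalised counts (linear axis from 0) of the 8 genes in each of the 16 libraries (points), with horizontal bars for the mean and vertical bars for the SD of each group of 4. Lep is highest in the Cre-labelled 30 °C libraries (2429 to 4179) and lowest in controls at 22 °C (219 to 630.0), while the Adipoq groups overlap throughout.

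Adiponectin, an insulin-sensitising hormone made by fat cells, passed the threshold in none of the 4 comparisons of 2 groups. Adipoq had 16512, 14429.5, 17054 and 12655 normalised counts in Cre-labelled libraries at 30 °C, against 14285, 15246, 14338 and 14691 in controls. At 22 °C it had 15198, 22109, 18241 and 19436 in Cre-labelled libraries, against 22263, 15809.7, 13452 and 16009 in controls. The groups overlapped in all comparisons, and the highest value in each 22 °C group came from one of the 2 sparsest libraries. The genotype difference was 0.04 at 30 °C (95% interval -0.29 to 0.37, limma adjusted p = 0.907) and 0.16 at 22 °C (-0.17 to 0.49, limma adjusted p = 0.556). The difference of 30 °C over 22 °C was -0.18 in controls (-0.51 to 0.15) and -0.30 in Cre-labelled libraries (-0.63 to 0.03), so the intervals hold no 2-fold change in any of the 4 comparisons. Scaling all libraries to the same total or to the same quantiles turned the sign in controls, and quantiles also in Cre-labelled libraries. Averaged over both temperatures the genotype difference was 0.10 (limma adjusted p = 0.55), and with quantile normalisation it was 0.40 and passed the threshold (limma adjusted p = 0.0129).

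Resistin, a secreted protein that in mice comes from fat cells, was lower in warm controls. Retn had 548, 284, 578 and 229 normalised counts in Cre-labelled libraries at 30 °C, against 302, 392, 369.7 and 193 in controls, and the groups overlapped. Retn at 22 °C had 531, 435, 762 and 503 in Cre-labelled libraries, against 447, 584, 469 and 651 in controls, which also overlapped. The genotype difference was 0.32 at 30 °C (limma adjusted p = 0.533) and 0.04 at 22 °C (limma adjusted p = 0.951). In controls the 30 °C libraries all lay below the 22 °C ones, a 1.75-fold fall (limma adjusted p = 0.0291; log2 difference -0.81, SE 0.28). In Cre-labelled libraries the difference was -0.52 (95% interval -1.12 to 0.08, limma adjusted p = 0.171). The call in controls was lost in 7 of the 29 alternative settings. These were quantile normalisation, the same total per library, the muscle covariate, and leaving out control 22 °C library 2 or 4 or control 30 °C library 1 or 4.

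Retinol-binding protein 4, the carrier of retinol in blood, showed the largest fall with warmth among the 8 genes in each genotype. Rbp4 had 348, 279.7, 619 and 225 normalised counts in Cre-labelled libraries at 30 °C, against 276, 328, 279.6 and 171 in controls. The 22 °C values were 1169.7, 1923, 739 and 869 in Cre-labelled libraries, against 1446, 1348, 1604 and 1535 in controls. Every 30 °C library lay below every 22 °C library of its genotype, and the genotypes overlapped at each temperature. The fall in warm housing was 5.75-fold in controls (-2.52 on the log2 scale, SE 0.30, limma adjusted p = 9.16e-06) and 3.21-fold in Cre-labelled libraries (-1.68, limma adjusted p = 4.86e-04). The genotype difference was 0.41 at 30 °C and -0.43 at 22 °C (limma adjusted p = 0.423 and 0.389). Leaving out 1 library at a time gave 0.13 to 0.61 at 30 °C and -0.70 to -0.24 at 22 °C, lowest in size without Cre-labelled library 3 of that temperature. The difference between the genotype values was 0.84 (95% interval -0.04 to 1.73, limma adjusted p = 0.509).

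Rbp4's cargo was covered by 19 genes of retinoid handling, of which 14 were tested. At 30 °C the Cre label went with 0 higher and 3 lower of these 14, including Rdh10, which makes retinal from retinol (log2 difference -0.92, limma adjusted p = 3.56e-04), and Retsat, a retinol saturase (-0.61, limma adjusted p = 0.00179). At 22 °C the Cre label went with 0 higher and 1 lower, Rdh10 (-0.64, limma adjusted p = 0.00765). Warm housing in controls went with 6 higher and 2 lower, and Retsat fell by 1.17 on the log2 scale while Cyp26b1, which breaks down retinoic acid, rose by 3.02. In Cre-labelled libraries it went with 2 higher and 1 lower, the lower one again Retsat (-1.44). Of all genes tested, 5.65% were called higher and 6.85% lower with the Cre label at 30 °C, and 5.51% and 4.69% at 22 °C. With warmth the shares were 22.9% higher and 22.7% lower in controls, and 15% and 17.7% in Cre-labelled libraries. These shares stand beside the counts of every gene list below.

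Neuregulin 4, a growth factor that brown fat secretes and that acts through ErbB receptors, was lower with the Cre label at both temperatures. Nrg4 had 1279.8, 1616, 1343 and 1184 normalised counts in Cre-labelled libraries at 30 °C, against 1846, 2207, 1699 and 1649 in controls. At the lower temperature Nrg4 had 2106, 2440.5, 1795 and 2243 in Cre-labelled libraries, against 3218, 2438, 3523 and 2947 in controls. The genotypes did not overlap at 30 °C, and at 22 °C Cre-labelled library 2 stood just above the lowest control. The fall with the Cre label was 1.36-fold at 30 °C (log2 difference -0.45, SE 0.14, limma adjusted p = 0.0397) and 1.41-fold at 22 °C (-0.49, limma adjusted p = 0.0295). These calls lie near the threshold: over the 29 alternative settings the adjusted p ran from 0.0175 to 0.123 at 30 °C, where 13 settings lost the call, and from 0.0133 to 0.105 at 22 °C, where 9 did. Averaged over both temperatures the log2 difference was -0.47 (limma adjusted p = 0.00206). Warm housing lowered Nrg4 1.63-fold in controls (-0.71, limma adjusted p = 6.18e-04) and 1.58-fold in Cre-labelled libraries (-0.66, limma adjusted p = 0.00152). Erbb3, an ErbB receptor, had a log2 difference of -0.82 with the Cre label at 30 °C (limma adjusted p = 0.035) and of 1.41 with warmth in controls.

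Chemerin, encoded by Rarres2, draws immune cells and acts on fat cells through its own receptor. Rarres2 had 964, 858, 845 and 672 normalised counts in Cre-labelled libraries at 30 °C, against 880.2, 869.7, 921 and 648 in controls, and the groups overlapped. At 22 °C it had 439, 726, 483 and 394 in Cre-labelled libraries, against 809, 362, 320.4 and 343 in controls. Library 2 of the first group and library 1 of the second, the 2 sparsest, were each the highest of their group. The genotype difference was 0.01 at 30 °C and 0.23 at 22 °C (limma adjusted p = 0.988 and 0.615). Warm housing raised Rarres2 1.94-fold in controls (0.96 on the log2 scale, SE 0.25, limma adjusted p = 0.00537) and 1.67-fold in Cre-labelled libraries (0.74, limma adjusted p = 0.0309, lost in 6 of 29 settings, each leaving out 1 of Cre-labelled 22 °C libraries 1, 3 and 4 or of Cre-labelled 30 °C libraries 1, 2 and 3), although the groups overlapped in both genotypes. Without the 2 sparsest libraries the log2 differences were 1.27 (limma adjusted p = 6.68e-06) and 0.92 (limma adjusted p = 1.70e-04).

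Nampt makes nicotinamide mononucleotide, the precursor of NAD+, inside cells, and a secreted form is found in blood. It had 2487, 3191, 3391 and 3104 normalised counts in Cre-labelled libraries at 30 °C, against 4052, 5161, 3269.7 and 3981 in controls. The values at 22 °C were 3292, 4767, 3176 and 4068 in Cre-labelled libraries, against 5387, 5919, 8017 and 8226 in controls. The genotypes overlapped at 30 °C, and at 22 °C every Cre-labelled library lay below every control. With the Cre label Nampt fell 1.79-fold at 22 °C (log2 difference -0.84, SE 0.17, limma adjusted p = 0.00523), and at 30 °C the difference was -0.43 (95% interval -0.79 to -0.06, limma adjusted p = 0.126). The difference between the temperatures was 0.42 (limma adjusted p = 0.604), so the effects were not shown to differ. Warm housing lowered Nampt 1.67-fold in controls (-0.74, limma adjusted p = 0.00275). That call was lost with quantile normalisation (-0.32, limma adjusted p = 0.119) and with the same total per library (-0.34, limma adjusted p = 0.0698), and in Cre-labelled libraries the difference was -0.32 (limma adjusted p = 0.173).

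Of 16 NAD synthesis and use genes, 13 were tested. The Cre label went with 0 higher and 3 lower at 30 °C (median log2 difference -0.16) and with 1 higher and 4 lower at 22 °C (-0.27). Nmnat3, an enzyme that completes NAD synthesis, fell by 0.93 on the log2 scale at 30 °C (limma adjusted p = 8.36e-04). Nadk2, the mitochondrial NAD kinase, fell by 0.58 at 30 °C and by 0.81 at 22 °C. The higher gene at 22 °C was Cd38, an enzyme that consumes NAD (0.64, limma adjusted p = 0.00787). Warm housing went with 2 higher and 5 lower in controls and with 1 higher and 7 lower in Cre-labelled libraries. The medians over all genes tested lay within 0.04 of 0 in these comparisons.

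Npr3 encodes the clearance receptor that removes natriuretic peptides, hormones that promote lipolysis. It had 1478, 1366, 1586 and 1225 normalised counts in Cre-labelled libraries at 30 °C, against 1688, 1779, 1831 and 1975 in controls. Npr3 at 22 °C had 696, 898, 655 and 726 in Cre-labelled libraries, against 579.7, 698, 787 and 779 in controls. The genotypes did not overlap at 30 °C and overlapped at 22 °C, and every 30 °C library stood above every 22 °C library. The genotype difference was -0.37 at 30 °C (95% interval -0.62 to -0.11, limma adjusted p = 0.0576) and 0.07 at 22 °C (limma adjusted p = 0.782). Without the 2 sparsest libraries these were -0.37 (limma adjusted p = 0.00754) and -0.12 (limma adjusted p = 0.41). With all libraries, the genotype difference at 30 °C minus that at 22 °C was -0.43 (limma adjusted p = 0.365), so the effects were not shown to differ. Averaged over both temperatures the Npr3 difference was -0.15 (limma adjusted p = 0.228), and without the 2 sparsest libraries it passed the threshold (-0.24, limma adjusted p = 0.0109). Warm housing raised Npr3 2.57-fold in controls (1.36, SE 0.12, limma adjusted p = 7.36e-07) and 1.90-fold in Cre-labelled libraries (0.93, limma adjusted p = 4.59e-05).

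Npr2, a signalling receptor for natriuretic peptides, rose with the Cre label at both temperatures. It averaged 1438 ± 159 normalised counts in Cre-labelled libraries and 888 ± 147 in controls at 30 °C (SD, n = 4 each, log2 difference 0.70, limma adjusted p = 0.0143). At 22 °C it averaged 1034 ± 228 in Cre-labelled libraries and 559 ± 119 in controls (0.89, limma adjusted p = 0.00389). Npr1, the receptor for atrial natriuretic peptide, rose with warmth by 0.82 in controls and by 0.57 in Cre-labelled libraries. Of the 9 natriuretic genes tested out of 13 listed, 1 was higher and 2 lower with the Cre label at 30 °C, and 1 was higher at 22 °C.

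Counted together, 1 of the 8 genes was called with the Cre label at 30 °C (Nrg4, lower), where 12.5% of all genes tested were called, 5.65% higher and 6.85% lower. At 22 °C 2 were called (Nrg4 and Nampt, lower), where 10.2% of all genes were, 5.51% higher and 4.69% lower. Without the 2 sparsest libraries 3 were called at 30 °C (Lep, Nrg4 and Npr3) and 3 at 22 °C (Lep, Nrg4 and Nampt), while the share of all genes called was also higher, at 21.2% and 17.8%. Warm housing in controls called 7 of 8 (Lep, Rarres2 and Npr3 higher, Retn, Rbp4, Nrg4 and Nampt lower), against 45.5% of all genes, 22.9% higher and 22.7% lower. In Cre-labelled libraries it called 5 of 8 (Lep, Rarres2 and Npr3 higher, Rbp4 and Nrg4 lower), against 32.7%, 15% higher and 17.7% lower. The interaction called 0 of 8, against 0.44% of all genes, which is 58 genes by limma. Npr3 alone had an unadjusted limma p under 0.05 there, and it did not pass after adjustment (limma adjusted p = 0.365). Averaged over temperatures, 3 of 8 were called with the Cre label (Lep higher, Nrg4 and Nampt lower), against 22.3%. Groups did not overlap for 3 genes at 30 °C and 1 at 22 °C by genotype, where 22.9% and 12.4% of all genes did not, and for 6 and 4 genes by temperature in controls and Cre-labelled libraries, where 41.2% and 34.5% did not. Over 32 two-sided exact permutation tests of single genes, 14 reached an unadjusted p under 0.05 and 0 passed after adjustment over the 32, with the smallest adjusted p at 0.0653. These 14 are the same cases just counted as not overlapping, each at 0.0286, the smallest exact permutation p that 4 against 4 allows. Their adjusted p was set by how many tests reached that floor, so that 0 passed says nothing about effect sizes or the limma calls. The comparisons share groups, so calls for a gene in several of them are not independent.

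**Figure D3:**
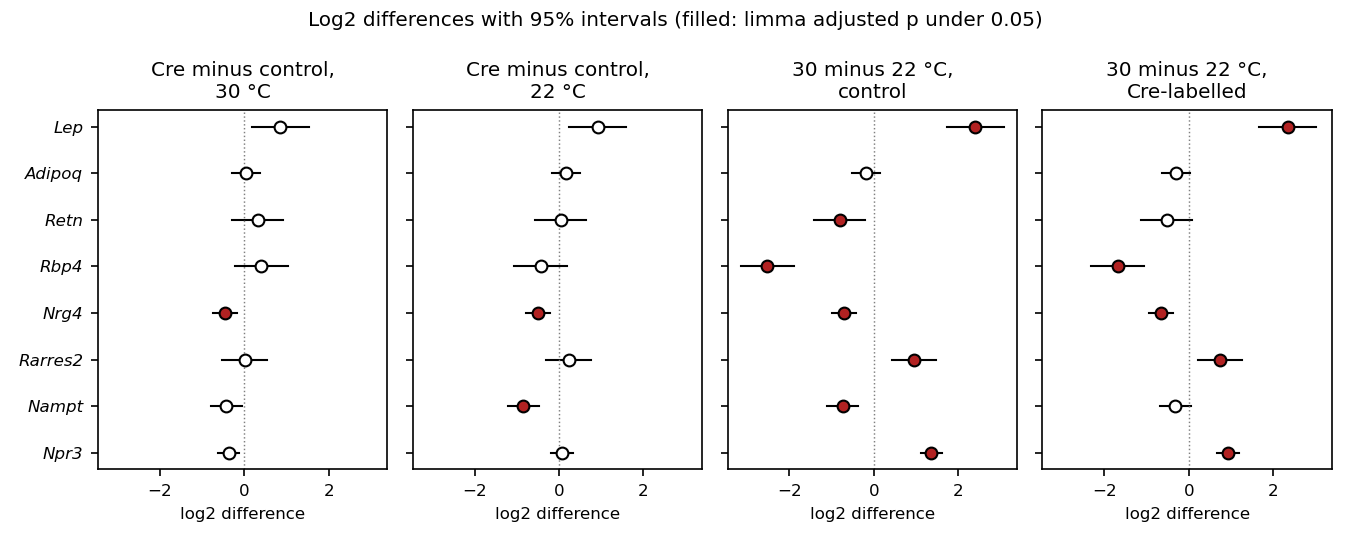
Log2 differences (log2(value + 1) scale) of the 8 genes with 95% intervals and filled points for genes past the adjusted threshold, for Cre-labelled over control at each temperature and for 30 °C over 22 °C in each genotype. The Lep temperature differences of 2.40 and 2.34 lie far to the right of 0, and those of Rbp4, -2.52 and -1.68, far to the left.

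Receptors of these signals and other secreted products gave mixed counts. Of 12 receptor genes tested out of 16, 1 was higher and 1 lower with the Cre label at 30 °C and 2 were higher at 22 °C. Those at 30 °C were Npr2 and Erbb3, and those at 22 °C were Npr2 and Cdh13. Npr2 is also the higher gene in the natriuretic counts above, so the lists share genes and their counts are not separate. With warmth 5 were higher and 2 lower in controls, and 6 were higher and 2 lower in Cre-labelled libraries. Cdh13, which binds adiponectin, rose with the Cre label at 22 °C by 0.67 (limma adjusted p = 0.00539), and Adipor2, an adiponectin receptor, fell with warmth by 0.93 in controls and by 0.73 in Cre-labelled libraries. Of 36 other secreted genes tested out of 50, 6 were higher and 5 lower with the Cre label at 30 °C, and 5 were higher and 4 lower at 22 °C. Ptgds, a prostaglandin D synthase, averaged 8.80 ± 2.92 normalised counts in Cre-labelled libraries and 82.6 ± 25.1 in controls at 30 °C (SD, n = 4 each, limma adjusted p = 7.61e-07). Inhbb, an activin subunit, averaged 175 ± 17.8 in Cre-labelled libraries and 45.0 ± 7.22 in controls at 30 °C (limma adjusted p = 0.00326). Warmth went with 11 higher and 4 lower of these 36 in controls and with 14 higher and 6 lower in Cre-labelled libraries. Of 14 tested regulators of such genes, Bcl6 among them, 1 was higher and 1 lower with the Cre label at each temperature. The higher one was each time Bcl6 itself, the floxed gene. With warmth 4 were higher and 4 lower in controls, and 0 were higher and 1 lower in Cre-labelled libraries. The other 1 that moved with the Cre label at 22 °C was Srebf1, a lipid synthesis factor, which fell by 0.98 (limma adjusted p = 0.019). Pltp, a phospholipid transfer protein, differed between the temperatures in its genotype effect (interaction 0.82, limma adjusted p = 0.0223).

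**Figure D4:**
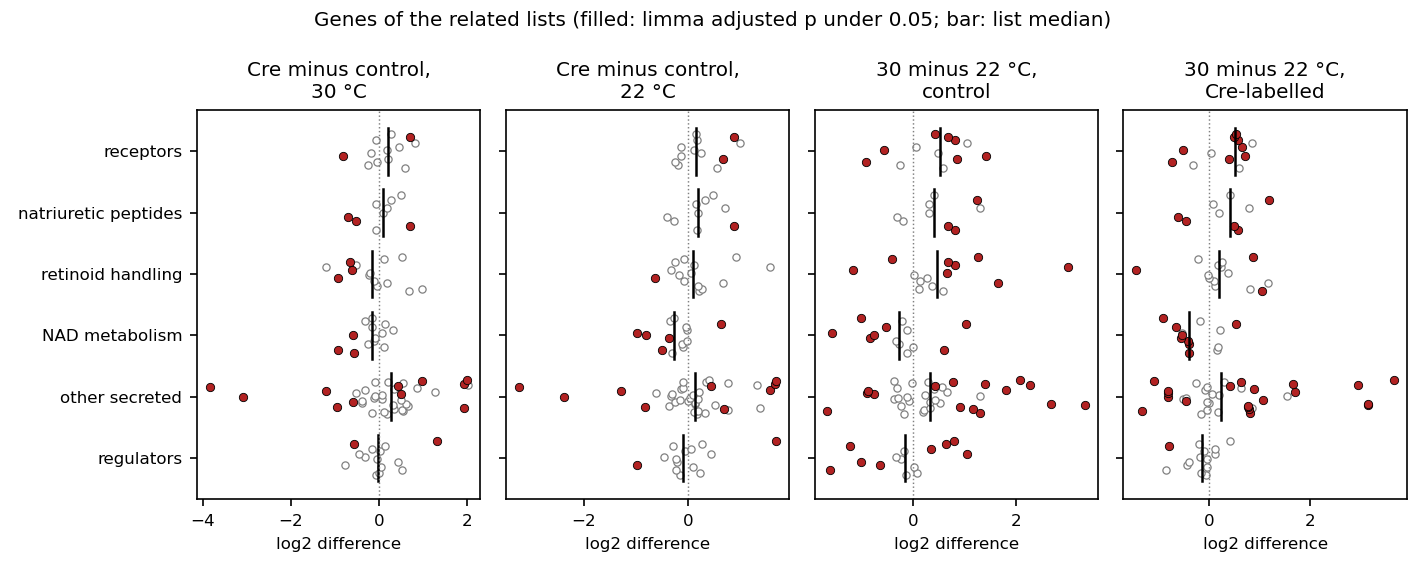
Log2 difference (horizontal axis) of each tested gene in 6 related lists, for Cre-labelled over control at each temperature and for 30 °C over 22 °C in each genotype, with filled points for genes past the adjusted threshold and a bar at each list's median. The list of 36 other secreted genes gives 6 higher and 5 lower with the Cre label at 30 °C, and the 13 NAD genes give 0 higher and 3 lower.

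Of 12 general adipocyte markers 7 were lower with warmth in controls and 6 in Cre-labelled libraries, 1 was lower with the Cre label at 30 °C and 0 at 22 °C, and 0 were higher in any of these. Their summed level ran from 236919 to 264592 normalised counts in Cre-labelled libraries and from 248704 to 293932 in controls at 30 °C, and from 338512 to 438866 in Cre-labelled libraries and from 406164 to 449583 in controls at 22 °C. Of 12 brown fat markers 5 were lower with the Cre label at 30 °C, 3 at 22 °C and 9 with warmth in each genotype, and 0 were higher. Of 12 tested white-fat-enriched genes 4 were higher and 1 lower with the Cre label at each temperature, and with warmth 7 were higher and 2 lower in controls and 6 were higher and 2 lower in Cre-labelled libraries. Markers of other cell types moved with the same comparisons. Of 20 macrophage markers, 15 were higher with the Cre label at 30 °C and 0 lower, 10 were higher and 1 lower at 22 °C, and with warmth 17 and 18 were higher in controls and Cre-labelled libraries and 0 lower. Their summed level ran from 11722 to 23112 normalised counts in Cre-labelled libraries and from 6227 to 7906 in controls at 30 °C, and from 4561 to 6239 in Cre-labelled libraries and from 2462 to 4296 in controls at 22 °C. None of the 20 was at 0 in any library. Summed skeletal muscle markers ran from 903 to 35347 in Cre-labelled libraries and from 12378 to 21782 in controls at 30 °C, and from 1535 to 41476 in Cre-labelled libraries and from 1577 to 6110.2 in controls at 22 °C, and 10 of the 20, Myh4 among them, were at 0 in some library. Of these 20 muscle markers, 0 were higher and 1 lower with the Cre label at 30 °C, and 1 was higher and 0 lower at 22 °C. With warmth 9 were higher and 0 lower in controls, and 0 were called in either direction in Cre-labelled libraries. With muscle level as a covariate the Lep genotype difference at 30 °C was 1.07 (limma adjusted p = 0.0142), past the threshold. With the same covariate the Nrg4 call at 30 °C was lost (-0.41, limma adjusted p = 0.0686). Of 12 endothelial markers 4 were higher with the Cre label at each temperature, and with warmth 5 were higher in controls and 4 in Cre-labelled libraries. Of 12 progenitor markers 1 was higher with the Cre label at 30 °C and 2 at 22 °C, and with warmth 8 were higher in controls and 7 in Cre-labelled libraries. No marker of either list passed the threshold as lower. The part of adipocyte, macrophage, progenitor and endothelial RNA in the differences of the 8 genes was not tested.

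The genes whose levels tracked each of the 8 most closely over the 16 libraries are given as Pearson's r of log2 values, with no p, since all libraries fall into the same 4 groups. Among 9295 genes with a mean of at least 100, Lep was most like Tnfrsf21 (0.964), Phldb1 (0.958) and Mcam (0.956). Adipoq was most like Dctpp1 (0.901), Rpl28 (0.899) and Rps18 (0.892), and Retn like Car5b (0.863), Slc25a10 (0.845) and Lrwd1 (0.840). Rbp4 was most like Ppp2r5a (0.971), Hsd11b1 (0.969) and Bnip3l (0.960), and Nrg4 like Hdgf (0.967) and Mrpl50 (0.959). Nampt was most like Glul (0.956), Mcfd2 (0.954) and Isoc1 (0.942), Rarres2 like Gstm2 (0.926), Nans (0.923) and Ift43 (0.923), and Npr3 like Igfbp3 (0.952), Ppt1 (0.952) and Rnf144b (0.948). Genes that follow the group means score high on this measure whatever they do. Single libraries count too. Rps18, listed for Adipoq, had 5605 normalised counts in Cre-labelled 22 °C library 2 and 6384 in control 22 °C library 1, against 2943 to 3964 elsewhere. Gstm2, listed for Rarres2, had 756 and 877 in these 2 sparsest libraries, the highest of each 22 °C group. How far these libraries set the correlations of Adipoq and Rarres2 was not tested.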

How the data were processed

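RNA was measured in 16 libraries, sequenced as stranded polyA single reads of 75 cycles per the labels' protocols. The deposited signal values are normalised counts, 1 for each gene in each library. They were made by the authors with kallisto on mm10 and then DESeq2, per the submitters' processing notes. No value above 0 was within 1e-06 of a whole number, so raw depth is unknown and no counting interval is given, and between-library scaling hides a change in total RNA. The authors' BCL6 peak list, annotated with HOMER per the file headers, covers 1 library. Its deposited score has no stated scale, and its deposited focus ratio is a fraction.

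Log2(value + 1) of genes with a mean of at least 10 was fitted with limma 3.58.1 in R 4.3.3, with 1 mean per group over all 16 libraries and empirical Bayes moderation with a trend. Benjamini-Hochberg adjustment ran over all 13176 genes, with a threshold of 0.05. Fold changes on this scale understate those of low genes. The fit was also run on simulated data with independent normal noise for each gene. Such noise lacks differences shared across genes, such as muscle level, so that run does not show how the p-values hold under them. Of 16 sample columns 0 were left unused. The 8 genes, the lists and the rules were chosen with earlier results of these data known. From each list the rule names up to 4 genes past the threshold with the smallest adjusted p, and for each of the 8 genes the 3 with the highest correlation. A gene that the rule takes is not reported here. Alternatives changed the pseudocount, filter, scaling, trend, covariates and libraries used. Gene starts and promoters come from RefSeq GRCm38.p6. H3K27ac, ERRa, Cre-labelled BCL6 and input ChIP samples were not used here.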

Additional observations from a re-analysis of the deposited data

Results flagged for a closer look

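Of the 32 groups of 4 libraries formed by the 8 genes, 1 held a library far from the others, and chance flags about 1 group in 20. Rarres2 in the controls at 22 °C had 809 normalised counts in library 1, against 362, 320.4 and 343 in the others. The gap to the next library was 0.915 of the group's range, above Dixon's 95% limit for 4 values. That library is one of the 2 sparsest, and its part in the temperature difference of Rarres2 is given by the fit without both, where the difference was 1.27 in controls, against 0.96 with them.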

How the results depend on the processing

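Over 1152 alternative values of the 8 genes in the 5 comparisons, 1074 kept their direction and side of the threshold, 37 lost the call, 13 gained one and 28 changed sign. Lep, Rbp4, Nrg4 and Npr3 in both temperature comparisons, Rarres2 with warmth in controls and Nampt with the Cre label at 22 °C kept their calls in all 29 settings, and the averaged genotype calls of Lep, Nrg4 and Nampt in all 28. The causes of the changes below were not tested. The number of the 8 genes called with the Cre label at 30 °C (1 as reported) was 0 with no filter on low values, 2 with quantile normalisation, 0 with no trend, 3 with the 2 groups fitted alone and 3 without the 2 sparsest libraries. At 22 °C (2 as reported) it was 1 with quantile normalisation and 1 with the 2 groups alone. Genes called numbered 2798 at 30 °C and 2350 at 22 °C without the 2 sparsest libraries, against 1647 and 1344 with them, and 525 at 22 °C with the 2 groups alone. The interaction, with 58 genes as reported, called 37 with no trend, 29 with the skeletal muscle covariate and 178 without the 2 sparsest libraries. Of the 2 assigned peaks 1 was left within 10 kb, 1 within 50 kb and 1 at or above the median score.

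Sign changed only in values that were not called. For Adipoq with warmth these were 0.33 in controls and 0.16 in Cre-labelled libraries with quantile normalisation and 0.21 in controls with the same total per library. The Adipoq genotype value at 30 °C was -0.026 and that of Rarres2 -0.12 with the muscle covariate, and that of Npr3 at 22 °C was -0.12 without the 2 sparsest libraries. The Lep interaction was 0.023 with quantile normalisation and 0.43 with the muscle covariate, and that of Nrg4 -0.10 with quantile normalisation and -0.062 with the same total. The averaged genotype value of Rbp4, -0.01 as reported, was 0.036 and 0.11 under those 2 scalings. The same total per library moved the median of all genes by 0.07 and 0.17 in the genotype comparisons at 30 and 22 °C and by 0.39 and 0.29 in the temperature comparisons in controls and Cre-labelled libraries, and relative to that shift the values equal those reported.

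Leaving out 1 replicate at a time gave 1008 to 2117 genes called with the Cre label at 30 °C, 765 to 2359 at 22 °C and 21 to 102 for the interaction, and 0 to 3 and 1 to 3 of the 8 genes at 30 and 22 °C. The lowest counts of genes came without control 30 °C library 4, Cre-labelled 22 °C library 3 and, for the interaction, either control 22 °C library 3 or Cre-labelled 30 °C library 1, and the highest without one of the 2 sparsest libraries. It gave a genotype value of -0.019 to 0.12 for Adipoq and -0.10 to 0.11 for Rarres2 at 30 °C, and of -0.12 to 0.15 for Retn and -0.029 to 0.12 for Npr3 at 22 °C. It gave -0.37 to 0.23 for the Lep interaction, -0.042 to 0.15 for that of Nrg4 and -0.15 to 0.089 for the averaged genotype value of Rbp4.

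With the replicate number as a replicate block, 0 of the 8 genes were called with the Cre label at 30 °C and 24 genes were called for the interaction. No pairing by number was seen in the values. The labels do not say what the numbers mark, and this check cannot exclude a shared litter or day. Deviations of same-numbered libraries correlated from -0.48 to 0.238, with 6 of 24 pairs over 0.1, against 19 of 72 pairs with other numbers. Libraries matched best with their own number in 12 of 48 cases.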
